A study of Mus musculus with 19 samples.

Results

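Ifih1, Dhx58, Ddx60, Stat2, Irf1, Irf7, Irf9, Ifnar1 and Ifnar2 are genes of the cytosolic RNA sensing and type I interferon signalling system, and they were followed here across mouse medulloblastomas that had become resistant to a Smoothened antagonist. The members were chosen by name, as every probe set annotated to a single one of these symbols, with the difference between resistant and vehicle tumours already known. They comprised 9 of 18193 genes and 16 of 45037 probe sets on the arrays. Of these 16, 14 passed the filter on low signal, and the other 2 were probe sets of Dhx58.

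All tumours carried the genotype Ptch+/-p53-/-, with a single working copy of Ptch, the receptor that restrains Hedgehog signalling, and no p53. Cells taken directly from such tumours were placed under the flank skin of nude mice, which lack a thymus and so most T cells but keep macrophages and natural killer cells. Expression was measured on 1 Affymetrix array per tumour, in 8 tumours given NVP-LDE225 at 160 mg/kg, 8 given it at 40 mg/kg and 3 given vehicle. NVP-LDE225 blocks Smoothened, the transducer of the Hedgehog signal. The labels call every treated tumour resistant and every vehicle tumour sensitive, so drug exposure and resistance cannot be told apart. The labels do not say how many donor tumours were used, how long treatment lasted, or whether each array is a separate animal, and p-values therefore cover only the spread between the arrays of a group, which may be partly technical.

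Double-stranded or uncapped RNA in the cytosol is bound by the helicases MDA5 (Ifih1) and RIG-I, with LGP2 (Dhx58) as a regulator and DDX60 as a helper of RIG-I, and the signal leads to interferon production. Secreted type I interferon binds the receptor chains Ifnar1 and Ifnar2. The receptor then activates a complex of Stat proteins with Irf9 that binds the interferon-stimulated response element (ISRE), whereas Stat dimers bind the gamma-activated sequence (GAS). Irf7 drives further interferon transcription, Irf1 is induced mainly through GAS elements, and most of the sensors are themselves interferon-induced, which closes a loop. Tumour cells, macrophages, endothelium and fibroblasts can all express these genes.

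Promoter windows from RefSeq (build GRCm38.p6, 250 bases before and 50 after the annotated start) were searched on both strands for the ISRE core, read as GAAA, any 2 bases and GAAA, and for the GAS core TTCNNNGAA. Windows existed for 8 of the 9 genes. The ISRE core occurred in 3 of these 8 genes, against 3.44% of 32851 promoters in the table, and the GAS core in 3 of 8, against 8.30%. The percentages count windows rather than genes, and a gene with more windows has more places for a match. Stretches of 5 genes are shown, from the sensors Ddx60 and Ifih1, the transcription factors Stat2 and Irf1 and the receptor chain Ifnar2. Capitals mark the matched core, and a match is not evidence that a factor binds. Ddx60 held 2 ISRE cores, whose first bases lay at -53 and -19 from the start, within chr8:61927987-61928086 on the plus strand.
Ddx60: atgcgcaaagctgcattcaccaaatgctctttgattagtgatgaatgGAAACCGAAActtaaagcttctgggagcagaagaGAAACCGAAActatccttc
Ifih1 held an ISRE core that began at position 33 after its start, in chr2:62646206-62646234 on the minus strand.
Ifih1: agaagagaatcGAAACAGAAAccgatctg
Stat2 held an ISRE core in reverse orientation at -222, in chr10:128270248-128270347 on the plus strand.
Stat2: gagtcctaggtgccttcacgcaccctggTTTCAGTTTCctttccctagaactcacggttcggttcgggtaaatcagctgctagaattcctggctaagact
Irf1 held a GAS core at -90 in the window shown, in chr11:53769884-53769983 on the plus strand, and none in its other window.
Irf1: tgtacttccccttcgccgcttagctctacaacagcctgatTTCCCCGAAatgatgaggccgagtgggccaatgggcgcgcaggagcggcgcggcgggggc
Ifnar2 held a GAS core at -214, in chr16:91372533-91372632 on the plus strand.
Ifnar2: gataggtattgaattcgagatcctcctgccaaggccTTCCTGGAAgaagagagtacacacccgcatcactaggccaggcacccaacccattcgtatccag
The third GAS match lay in Ifnar1, at -5. The windows of Irf7 and Irf9 contained neither set of letters.

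Signals are MAS5 intensities on a linear scale without units, and log2 changes were taken after adding 2.5, which understates the change of dim probe sets. The median signal per array lay between 32.7 and 49.7, and pairwise correlations of arrays between 0.878 and 0.968. Genes of the granule neuron lineage from which this tumour arises were high in most tumours, and some of them differed between the groups. Zic1 lay between 3632 and 6115 at 160 mg/kg, between 4346 and 5445 at 40 mg/kg and between 3233 and 3647 in vehicle tumours. Neurod1 was above all vehicle tumours in 16 of 16 resistant tumours (log2 change 1.22, SE 0.26, limma adjusted p = 0.0125), and Zic1 in 15 of 16 (0.51, SE 0.12, adjusted p = 0.0179). Zic1 and Neurod1 were thus higher in resistant than in vehicle tumours as groups, whereas the sensors described next were lower. Whether they ran against each other from tumour to tumour was not tested. Atoh1 and Barhl1 went the other way without being called. Their log2 changes were -0.87 (SE 0.74, limma adjusted p = 0.507) and -0.59 (SE 0.57, limma adjusted p = 0.565). They lay below all vehicle tumours in 13 and 12 of 16 resistant tumours, in that order. The part of these lineage genes in the sensor results was not tested. In 160 mg/kg tumour 2 Atoh1 read 22.5 and Barhl1 32.7, with dose medians of 819 and 474. This tumour and vehicle tumour 3 had the lowest mean correlation with the other arrays, and counts without both are given beside the main counts.

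The sensors were lower in resistant tumours, without overlap. Ifih1, which binds long double-stranded RNA, had a lowest, median and highest signal of 38.6, 158 and 451 at 160 mg/kg, and of 102, 157 and 542 at 40 mg/kg. The vehicle tumours read 681, 821 and 702. All 16 resistant tumours lay below all 3 vehicle tumours, yet the resistant tumours themselves spread widely, with 160 mg/kg tumour 1 and 40 mg/kg tumours 6 and 8 highest. The log2 change of the mean of both doses against vehicle was -2.003 (SE 0.52), a signal 4.01-fold lower. Because these are whole-tumour RNAs, fewer cells of a type and less RNA per cell cannot be told apart.

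Dhx58, the regulator LGP2, gave 1.8, 8.55 and 31.9 at 160 mg/kg as lowest, median and highest signal on its kept probe set, and 7.3, 19.3 and 68.9 at 40 mg/kg. Vehicle tumours had 75.5, 102 and 98.5. Again no resistant tumour reached the vehicle range, and the log2 change was -2.49 (SE 0.55). The resistant signals were dim: 7 of 8 tumours at 160 mg/kg and 6 of 8 at 40 mg/kg lay at or below the 40th percentile of their array, against 0 of 3 vehicle tumours. Of the 2 Dhx58 probe sets that the filter removed, the one with the suffix _a_at lay below all vehicle tumours in 16 of 16 resistant tumours and the other in 0 of 16.

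Ddx60, a helicase that promotes RIG-I signalling, was measured by 2 probe sets. The brighter one had 14.1, 47.1 and 82.2 at 160 mg/kg and 32.2, 61.8 and 260.3 at 40 mg/kg, given as lowest, median and highest signal. In vehicle tumours it read 264, 459 and 354. The highest 40 mg/kg tumour, tumour 8, came close to the lowest vehicle tumour, and no resistant tumour overlapped the vehicle range. The log2 change was -2.55 (SE 0.53), and the second probe set gave -2.37 (SE 0.49), also with 16 of 16 resistant tumours below vehicle.

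The signals of the receptor chains overlapped between the groups. Ifnar1, which recruits the kinase Tyk2, had 160.1, 249.8 and 327 at 160 mg/kg and 138, 261 and 284 at 40 mg/kg, as lowest, median and highest. Its vehicle signals were 238, 256 and 216. Here 3 of 16 resistant tumours lay below and 8 above all vehicle tumours, and the log2 change was 0.03 (SE 0.19), with 0.10 (SE 0.21) on the second probe set.

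Ifnar2, the chain that binds Jak1, had 92.5, 171 and 212 at 160 mg/kg and 77.6, 131 and 193 at 40 mg/kg. Vehicle tumours had 85, 104 and 103. The groups overlapped, with 11 of 16 resistant tumours above and 1 below all vehicle tumours, and the log2 change was 0.53 (SE 0.25). The other probe sets gave 0.34 (SE 0.22) and 0.09 (SE 0.30), so the size of the difference depended on the probe set.

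Stat2 and Irf9 are transcription factors activated by the receptor. Stat2, on its brighter probe set, had 41.1, 62.1 and 89.5 at 160 mg/kg and 51.5, 71.1 and 88 at 40 mg/kg, with vehicle tumours at 65.4, 71.3 and 64.1. Resistant tumours lay on both sides of the vehicle range, 7 below and 7 above, and the log2 change was -0.03 (SE 0.20). The dimmer Stat2 probe set disagreed in size, with 14 of 16 resistant tumours below vehicle and a log2 change of -0.48 (SE 0.22).

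Irf9, the DNA-binding subunit that joins Stat2, had 68.8, 102 and 136 at 160 mg/kg and 98.5, 117 and 243 at 40 mg/kg. Vehicle tumours had 211, 250.4 and 240.2. All resistant tumours except 40 mg/kg tumour 6 were below the vehicle range, and the log2 change was -1.05 (SE 0.20), a signal 2.07-fold lower.

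Irf1, an early interferon-induced activator, showed no overlap. Its lowest, median and highest signals were 110.4, 153 and 195 at 160 mg/kg and 153, 199 and 343 at 40 mg/kg, and its vehicle signals 372, 397 and 374. The log2 change was -1.06 (SE 0.22), with 16 of 16 resistant tumours below vehicle.

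Irf7, the main amplifier of interferon transcription, had 34.8, 46.4 and 133 at 160 mg/kg and 53.4, 71.1 and 116 at 40 mg/kg. Vehicle tumours spread from 99.2 in tumour 1 to 187 in tumour 2, with 160.3 in tumour 3. The groups overlapped in 3 resistant tumours, 160 mg/kg tumour 1 and 40 mg/kg tumours 6 and 8, and 13 of 16 lay below vehicle. The log2 change was -1.15 (SE 0.29), a signal 2.22-fold lower.

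**Figure D1:**
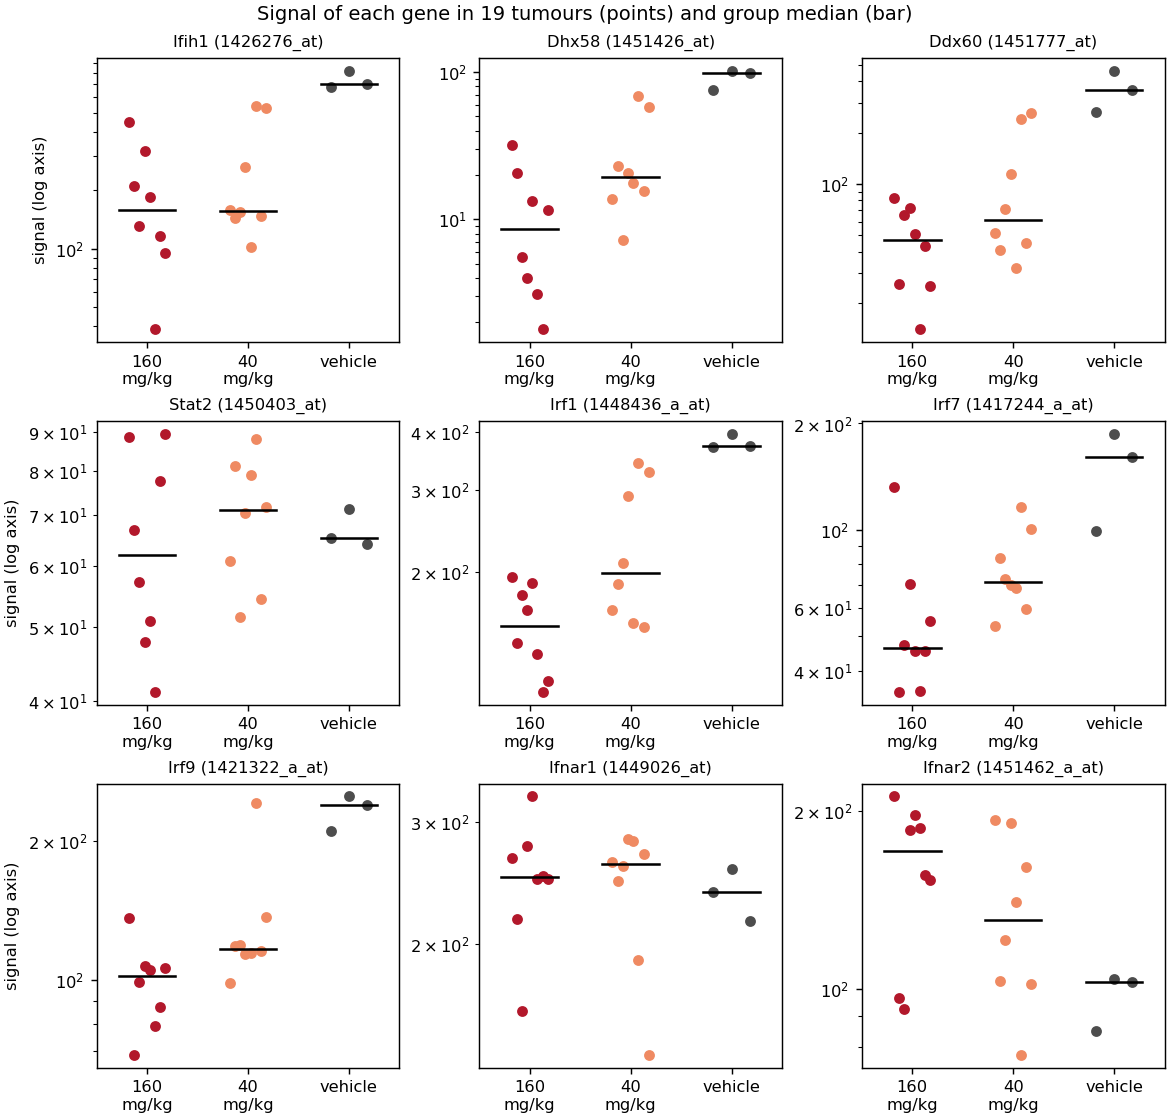
Signal of each gene (log axis, MAS5 intensity without units) by tumour at 160 mg/kg (n = 8), 40 mg/kg (n = 8) and vehicle (n = 3), for its brightest kept probe set; points are tumours and bars are group medians. Ifih1, Dhx58, Ddx60 and Irf1 show no overlap of resistant with vehicle tumours. For Stat2, Ifnar1 and Ifnar2, resistant tumours lie both above and below the vehicle range.

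Over the 9 genes the median log2 change of resistant against vehicle tumours was -1.06, against -0.06 over all 13454 genes tested. In limma's test, adjusted over all probe sets, 7 of 14 member probe sets were called lower, beside 1.83% of all 31143. The genes were chosen with this contrast known, so that share is a description. The called count was 4 without vehicle tumour 1, 1 without vehicle tumour 2 and 0 without vehicle tumour 3, and it was 1 without vehicle tumour 3 and 160 mg/kg tumour 2. All 16 resistant tumours lay below all vehicle tumours for 4 of the 9 genes, beside 2.53% of all genes.

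Both doses were compared with the same vehicle arrays, and for each of the 6 lower genes the change was larger at 160 mg/kg. At 160 and 40 mg/kg the log2 changes were -3.01 and -2.10 for Ddx60, and -3.08 and -1.91 for Dhx58. They were -2.23 and -1.78 for Ifih1, -1.32 and -0.80 for Irf1, -1.40 and -0.90 for Irf7, and -1.25 and -0.86 for Irf9. The calls were 7 of 14 probe sets at 160 mg/kg, beside 1.77% of all, and 2 of 14 at 40 mg/kg, beside 0.629%. At 160 mg/kg there were 3 calls without vehicle tumour 3. At 40 mg/kg none was called without any single vehicle tumour, nor without 40 mg/kg tumour 1, 2, 3, 5 or 7; there was 1 call without 160 mg/kg tumour 7, and there were 4 without tumour 6 or tumour 8 of the 40 mg/kg group.

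**Figure D2:**
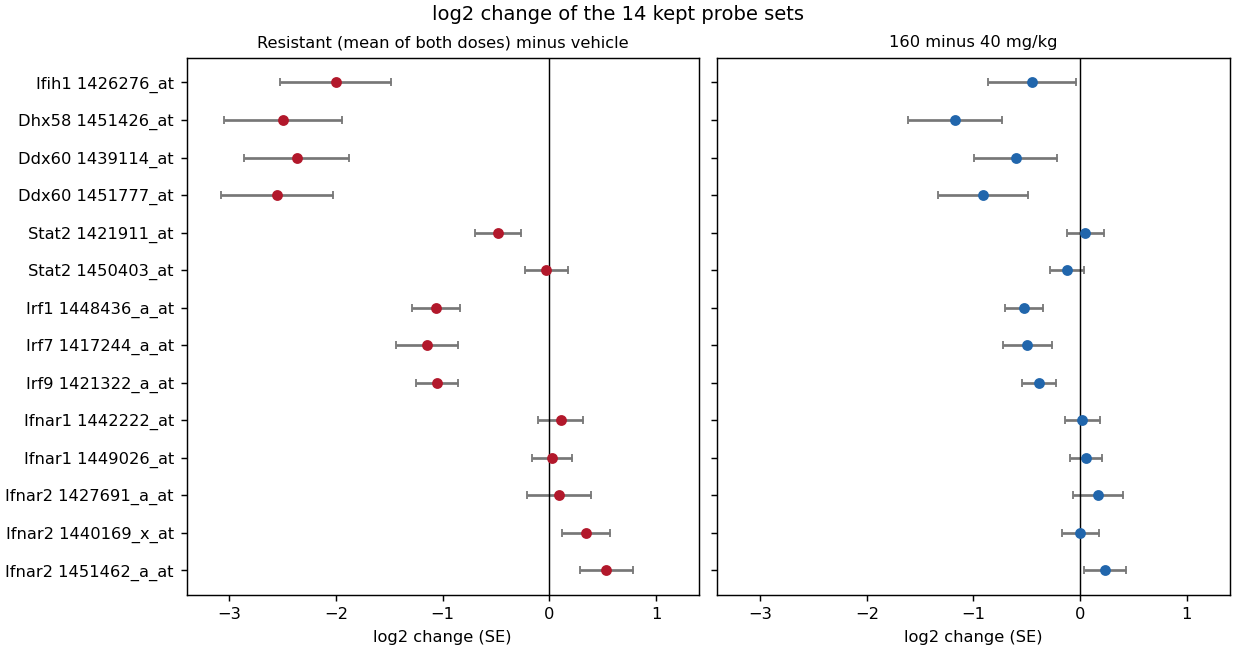
Log2 change (x axis) with its SE (bars) for each of the 14 kept probe sets, for the mean of both doses minus vehicle (left) and for 160 minus 40 mg/kg (right), from limma's fit of 3 group means. The 3 sensors have the most negative values against vehicle, from -2.003 to -2.55, and Ifnar1 and Ifnar2 lie above 0.

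The direct comparison of doses asked whether the higher dose went with lower levels, and its estimates did not use vehicle tumours, although its errors came from the spread shared by all 3 groups. By limma 0 of 14 member probe sets passed, beside 0% of all probe sets in either direction. Unadjusted p-values were under 0.05 for 5 of the 9 genes, all lower at 160 mg/kg, beside 7.42% of all genes and 6.81% of all probe sets. These 5 are not separate results, because 40 mg/kg tumours 6 and 8 were the 2 highest of their dose for each of them. The dose difference without both tumours was not computed. Irf1 averaged 154 ± 32.9 in the 160 mg/kg group and 229 ± 79.3 in the 40 mg/kg group (SD, n = 8 for each dose), a log2 difference of -0.53 (95% interval -0.89 to -0.16, limma adjusted p = 0.667). Dhx58 averaged 11.5 ± 10.4 in the 160 mg/kg group and 28.2 ± 22.5 in the 40 mg/kg group (SD, n = 8 for each dose), with a difference of -1.17 (-2.09 to -0.26, limma adjusted p = 0.674). Most of these Dhx58 signals lay at or below the 40th percentile of their array, and the difference was -0.62 with a pseudocount of 16, so its size is not settled.

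Ddx60 differed by -0.91 between the doses (-1.78 to -0.04, limma adjusted p = 0.720), Irf9 by -0.39 (-0.72 to -0.06, adjusted p = 0.678) and Irf7 by -0.49 (-0.97 to -0.01, adjusted p = 0.721). Tumours of the doses overlapped for all of these genes. The interval of Ifih1 ran from -1.32 to 0.41 around -0.45, so a difference in either direction could not be told from the spread. The intervals were -0.46 to 0.21 for Stat2, -0.25 to 0.36 for Ifnar1 and -0.18 to 0.65 for Ifnar2. The median difference over the 9 genes was -0.45, and 7 of 9 were below 0, against a median of -0.02 and 54.5% below 0 over all genes. Most of these genes shared their highest 40 mg/kg tumours, so they do not count as separate results.

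Among resistant tumours the levels were uneven. At 160 mg/kg tumour 1 was the highest for 6 of the 6 genes Ifih1, Dhx58, Ddx60, Irf1, Irf7 and Irf9, and at 40 mg/kg tumours 6 and 8 were the 2 highest for all 6. In tumour 8 at 40 mg/kg Ifih1 read 528 and Irf1 328, and in tumour 6 they read 542 and 343. The same pair of 40 mg/kg tumours was the lowest of its dose for both receptor chains, with Ifnar1 at 189.7 in tumour 6 and 138 in tumour 8. Ifnar2 read 77.6 in tumour 6 and 102 in tumour 8.

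**Figure D3:**
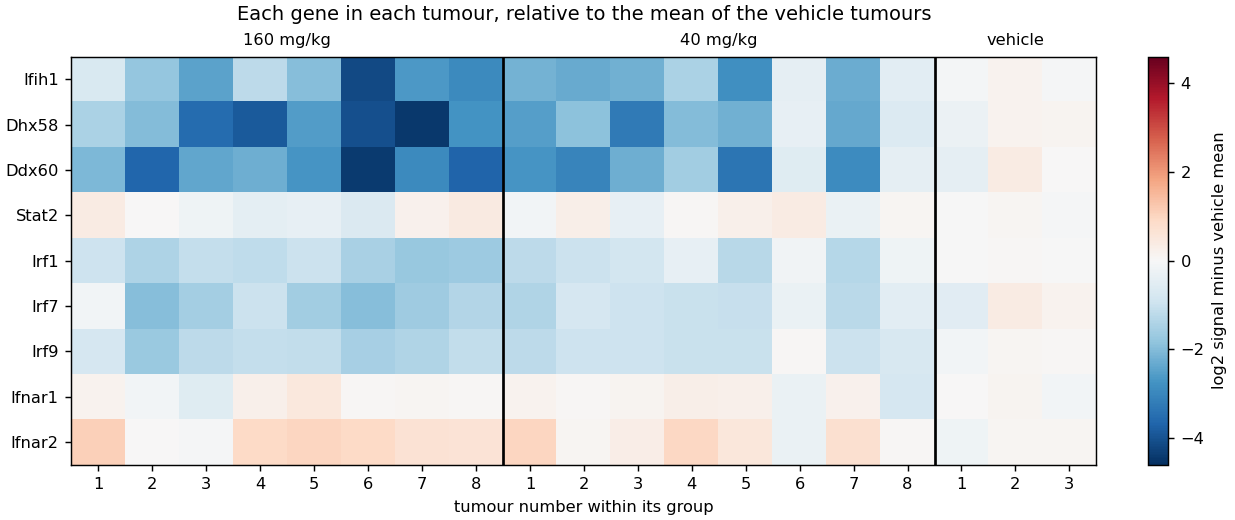
Log2 difference of each tumour from the vehicle mean (colour) for each gene (rows), with tumours of the 160 mg/kg, 40 mg/kg and vehicle groups in columns. Tumour 1 at 160 mg/kg and tumours 6 and 8 at 40 mg/kg are paler than most tumours of their dose in the sensor and Irf rows.

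Whether Irf7 varied with the other members among resistant tumours was tested on deviations from the mean of each dose, which do not use the vehicle contrast, in a family of 14 relations (8 members and 6 cell type lists; two-sided, 100000 permutations, n = 16). Irf9 had the highest correlation with Irf7 of the 14, with r = 0.811 (permutation p = 1e-05, the smallest these permutations can give; adjusted p = 0.00014) and rho = 0.818 (adjusted permutation p = 0.0042). It held within each dose, at r = 0.892 for 160 mg/kg (exact permutation p = 0.00109) and 0.853 for 40 mg/kg (exact p = 0.000645). Without the 2 tumours farthest from the median of Irf7, which were 160 mg/kg tumour 1 and 40 mg/kg tumour 6, r was 0.797 (adjusted permutation p = 0.0172).

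For 3 further members the Pearson correlation passed and the rank correlation did not. The share of all genes that would pass with Irf7 was not computed, so these calls are not shown to be particular to the members. Ifih1 had r = 0.723 (adjusted permutation p = 0.0143) and rho = 0.476 (adjusted p = 0.17). For Ddx60 r was 0.671 (adjusted permutation p = 0.0134) and rho 0.606 (adjusted p = 0.0846), and for Irf1 r was 0.572 (adjusted permutation p = 0.0349) and rho 0.568 (adjusted p = 0.0846). Without the 2 farthest tumours r was 0.555 for Ifih1, 0.613 for Ddx60 and 0.434 for Irf1, and none of these passed with 14 tumours (adjusted permutation p = 0.234, 0.148 and 0.416, in that order). The call for each of the 3 was therefore lost without those tumours, although r of Ddx60 moved little. Dhx58 (r = 0.571, adjusted permutation p = 0.0569) and Stat2 (r = 0.514, adjusted permutation p = 0.127) did not pass.

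The receptor chains showed no pooled relation with Irf7, at r = -0.167 for Ifnar1 (adjusted permutation p = 0.67) and -0.0395 for Ifnar2 (adjusted permutation p = 0.893). Within doses the values ran in opposite directions. Ifnar2 had r = -0.911 at 40 mg/kg (exact permutation p = 0.00166, adjusted p = 0.0116, n = 8) and 0.49 at 160 mg/kg (exact permutation p = 0.212, n = 8). Ifnar1 had r = 0.248 at 160 mg/kg (exact p = 0.492) and -0.766 at 40 mg/kg (exact permutation p = 0.0253, adjusted p = 0.0615). The difference between the doses was not tested.

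**Figure D4:**
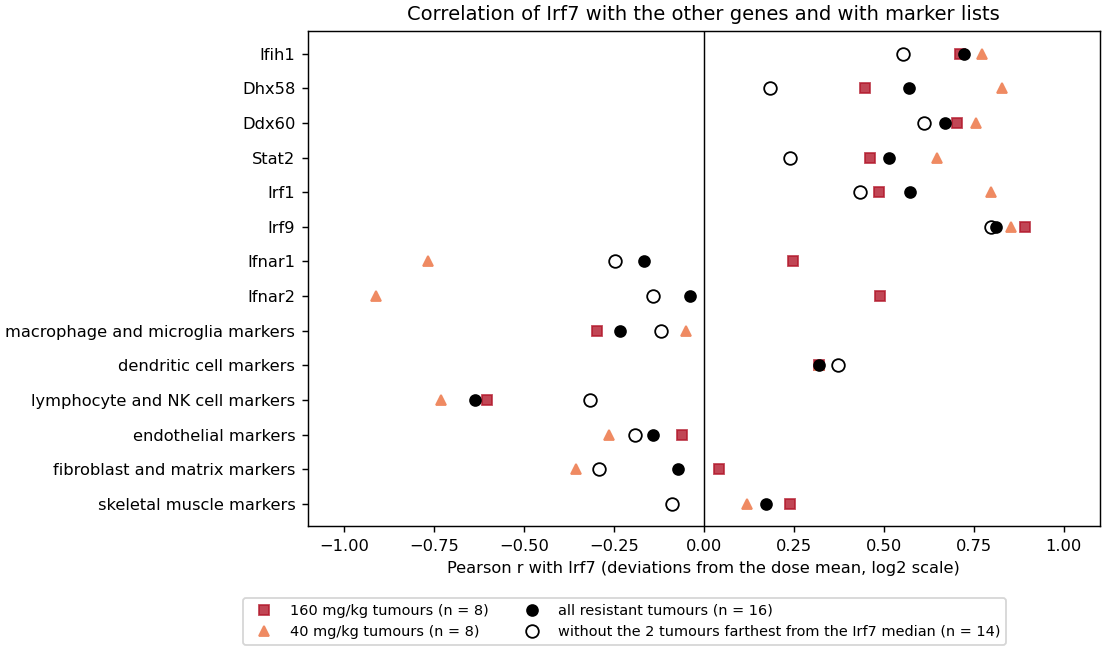
Pearson r of Irf7 (x axis) with each other gene and each marker list (rows), on log2 deviations from the dose mean; squares are 160 mg/kg tumours and triangles 40 mg/kg tumours (n = 8 each), filled circles all 16 and open circles 14 tumours without the 2 farthest from the Irf7 median. The 4 values of Irf9 lie together between 0.797 and 0.892, and those of Ifnar2 spread from -0.911 to 0.49.

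The genes whose deviations were most like the mean of Ifih1, Dhx58, Ddx60, Stat2, Irf7 and Irf9 over the 16 resistant tumours were ranked, and the 10 highest outside the list are given. As a description over arrays that share their scaling, r was 0.926 for Gbp2, a guanylate-binding GTPase, 0.921 for Ifit1, which binds foreign RNA ends, and 0.919 for the ubiquitin ligase Rnf213. It was 0.915 for Oasl2 and 0.911 for Oasl1, relatives of the oligoadenylate synthetases, and 0.908 for Usp18, which dampens receptor signalling. Bst2 (tetherin) had 0.902, Rsad2 (viperin) 0.891, the RNA-binding Zc3hav1 0.887 and the mitochondrial kinase Cmpk2 0.877. Over 13445 genes outside the list the median r was -0.00212 and the 99th percentile 0.631, and 26 genes exceeded 0.8.

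Zc3hav1 averaged 305 ± 138 in the 160 mg/kg group and 514 ± 243 in the 40 mg/kg group (SD, n = 8 for each dose), against 1296 ± 90.1 in vehicle tumours (SD, n = 3). Oasl1 averaged 57.5 ± 26.7 in the 160 mg/kg group and 98.4 ± 80.6 in the 40 mg/kg group (SD, n = 8 for each dose), and 364 ± 31.8 in vehicle tumours (SD, n = 3). Both, like Ifit1, lay below all vehicle tumours in 16 of 16 resistant tumours, beside 2.53% of all genes. Rnf213, Oasl2 and Bst2 did so in 15 of 16, and Gbp2, Usp18, Cmpk2 and Rsad2 in 14 of 16. For Rsad2 the other 2 resistant tumours lay above all vehicle tumours. Of the members, Irf1, which was not in that mean, had r = 0.726 with it, and Ifnar2 and Ifnar1 had -0.257 and -0.351.

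Other genes of RNA sensing and interferon signalling were followed as a list of 42, of which 31 passed the filter. Against vehicle, 6 of these 31 fell and 0 rose in resistant tumours by limma's adjusted test, beside 2.46% of all genes lower and 2.86% higher. Their median log2 change was -0.36, against -0.06 over all genes. Ddx58, the sensor RIG-I, averaged 88.5 ± 23.2 in the 160 mg/kg group and 118 ± 19.9 in the 40 mg/kg group (SD, n = 8 for each dose), against 233 ± 70.9 in vehicle tumours (SD, n = 3), a log2 change of -1.15 (SE 0.20, limma adjusted p = 0.00341). Rnf135, a ubiquitin ligase that activates RIG-I, fell by 0.62 on the log2 scale (SE 0.13, limma adjusted p = 0.0125).

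The DNA-sensing pair also fell. Cgas, which makes a cyclic dinucleotide on cytosolic DNA, averaged 92.1 ± 23.3 in the 160 mg/kg group and 123 ± 31.7 in the 40 mg/kg group (SD, n = 8 for each dose), against 235 ± 25.2 in vehicle tumours (SD, n = 3), a log2 change of -1.16 (SE 0.22, limma adjusted p = 0.00517). Sting1, the receptor of that dinucleotide, averaged 109 ± 25.9 in the 160 mg/kg group and 80.8 ± 16.8 in the 40 mg/kg group (SD, n = 8 for each dose), and 198 ± 34.1 in vehicle tumours (SD, n = 3), a log2 change of -1.08 (SE 0.19, limma adjusted p = 0.00389). Ddx58, Rnf135, Cgas and Sting1 each stood under the vehicle range in 16 of 16 resistant tumours.

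The remaining calls were feedback inhibitors. Usp18 had a log2 change of -2.13 (SE 0.51, limma adjusted p = 0.0234, below vehicle in 14 of 16) and the cytokine signalling suppressor Socs3 one of -0.67 (SE 0.19, limma adjusted p = 0.0457, below vehicle in 15 of 16). The nearest genes that did not pass were Irf3, the factor that starts interferon transcription (-0.40, limma adjusted p = 0.0590), and the nucleic acid sensor Zbp1 (-2.06, adjusted p = 0.0599). They were followed by the RIG-I ligase Rnf125 (-0.98, adjusted p = 0.0635), Irf5 (-0.54, adjusted p = 0.0828), the RNA-activated kinase Eif2ak2 (-0.77, adjusted p = 0.113) and Ifngr1, a chain of the interferon gamma receptor (-0.36, adjusted p = 0.163). Between the doses 0 of 31 passed by limma, beside 0% of all genes, and 5 had an unadjusted p under 0.05, beside 7.42% of all genes. These were Mavs, the adaptor of the RNA sensors (-0.52), Ddx58 (-0.43), Cgas (-0.40), Usp18 (-0.87) and Sting1 (0.41), with adjusted p-values from 0.674 to 0.721.

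In the 19 fits that each left out 1 array, Cgas was called in 19, Ddx58 and Sting1 in 18 and Rnf135 in 17, whereas Usp18 was called in 16 and Socs3 in 8. Only 3 of these fits left out a vehicle tumour. Of those 3, Cgas was called in 3, Ddx58 and Sting1 in 2, Rnf135 in 1, and Usp18 and Socs3 in 0. Without vehicle tumour 1 the list had 3 calls, without vehicle tumour 3 it had 1, and without vehicle tumour 3 and 160 mg/kg tumour 2 it had 2. The interferon genes Ifnb1, Ifna4 and Ifng did not pass the filter on low signal, nor did Ikbke, Irf4, Tlr7 and Socs1. The other 4 genes of the list were not analysed here.

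**Figure D5:**
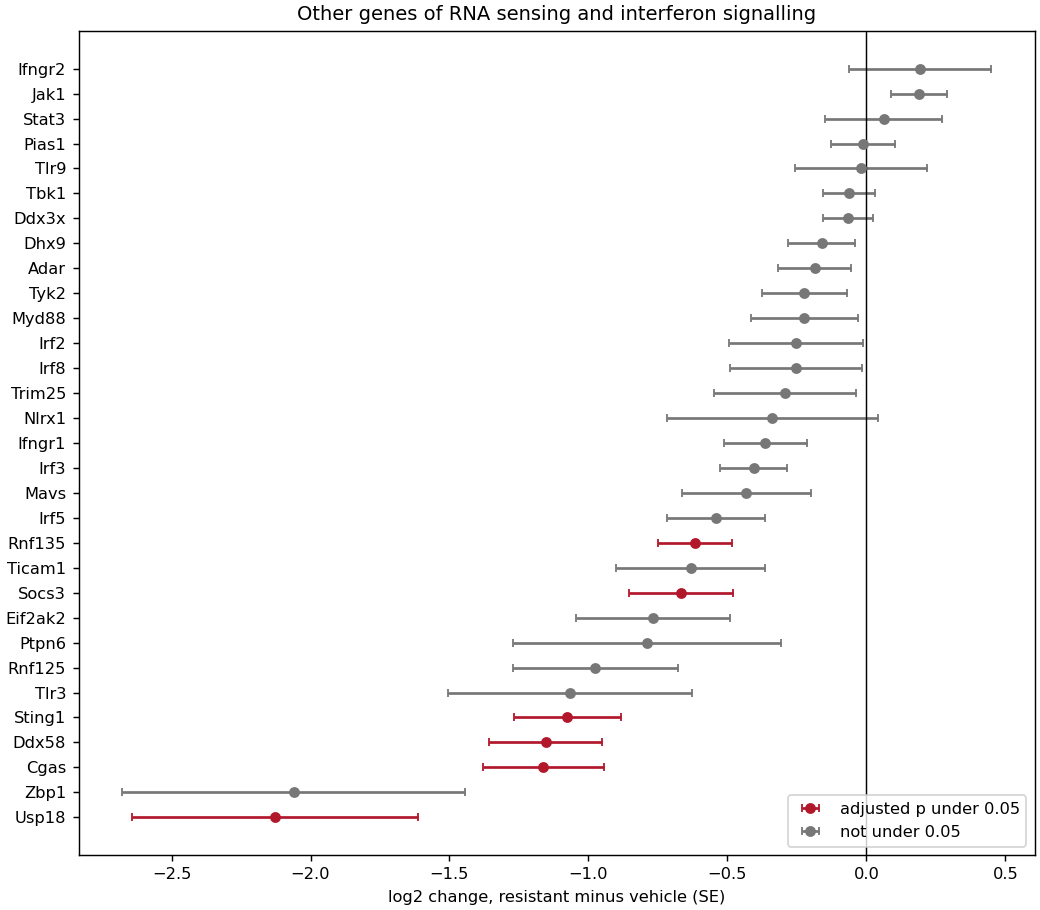
Log2 change of resistant minus vehicle tumours with its SE for the 31 kept genes of the RNA sensing and interferon signalling list, ordered by size. The 6 genes in red passed limma's adjusted test, all below 0, and 28 of the 31 values are below 0.

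Markers of other cells that a subcutaneous graft can hold were set beside these results. None of 14 kept macrophage markers was called between resistant and vehicle tumours. Their summed signal ran from 813 to 6832 at 160 mg/kg and from 875 to 3256 at 40 mg/kg, against 1176 to 1896 in vehicle tumours. The tumour with the highest sum, 160 mg/kg tumour 6, had the lowest Ifih1 and, on its brighter probe set, the lowest Ddx60 of all arrays. Counted from the highest of its dose, it ranked 7 of 8 for Dhx58, Irf7 and Irf9 and 6 of 8 for Irf1. Tumour 1, the highest of that dose in all 6 lower members, ranked 6 of 8 in macrophage signal. At 40 mg/kg, tumours 6 and 8, the 2 highest for the 6 lower members, ranked 2 and 7 of 8. Of the lymphocyte and NK cell list 1 of 12 genes passed the filter, Cd8a, whose deviations ran against those of Irf7 (r = -0.636, adjusted permutation p = 0.037) at signals between 2.7 and 38.8 in resistant tumours. That relation did not pass by rank (rho = -0.497, adjusted permutation p = 0.17) or without the 2 farthest tumours (r = -0.316, adjusted permutation p = 0.642), and Cd8a lay at or below the 40th percentile in 5 of 8 tumours at 160 mg/kg and 6 of 8 at 40 mg/kg.

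Of 4 kept dendritic cell markers 1 was called, Bst2, which is itself interferon-induced, with a log2 change of -1.54 (SE 0.33, limma adjusted p = 0.0126). None of 7 endothelial, 8 fibroblast and 10 skeletal muscle markers was called. The muscle list was the most uneven, and whether its signal came from host tissue was not tested. Summed signals ran from 296 to 10473 at 160 mg/kg, from 280 to 21350 at 40 mg/kg and from 1534 to 4535 in vehicle tumours. Pvalb made up most of some sums. It read 2219 and 2628 in 160 mg/kg tumours 3 and 4, where the sums were 3145 and 2850 and Acta1 read 107.5 and 72.6. The median log2 difference of the muscle list between 160 and 40 mg/kg was -1.42. Correlations of the macrophage, dendritic, endothelial, fibroblast and muscle lists with Irf7 lay between -0.233 and 0.319, with adjusted permutation p-values from 0.582 to 0.878, and their part in the results was not tested.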

How the data were processed

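The deposited values are MAS5 signal intensities on a linear scale per the submitters' processing notes, for 45101 probe sets on 19 arrays. To what target the arrays were scaled was not given in the sources used. The platform table naming the probe sets belongs to the Mouse 430 2.0 array, and the design text instead gives the 430A 2.0 array. Without 64 controls, 45037 probe sets remained, of which 34945 had 1 gene symbol, 932 several and 9160 none, and only the first were named. Entrez identifiers matched RefSeq for 34741 and changed 0 symbols.

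Values were log2(signal + 2.5), the pseudocount being the 10th percentile of all signals, with no further normalization. Probe sets were kept when 3 or more arrays had them above the array's own 40th percentile (31143 probe sets, 13454 genes), and a gene was represented by its kept probe set with the highest mean. limma (lmFit and eBayes with a variance trend) fitted 3 group means with 16 residual degrees of freedom, and two-sided p-values were adjusted by Benjamini-Hochberg over all kept probe sets and called under 0.05. Intervals use the moderated degrees of freedom. The fit was tested on simulated data.

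Members, lists and tests were chosen with earlier results of these data known, so comparisons of members with vehicle are descriptions. Named genes are all members, pathway genes called in a contrast plus the 6 with the next smallest p, and the 10 genes most like the member profile. Genes named from the dose contrast at an unadjusted p, the lineage and Hedgehog genes, and the selected marker genes were chosen after their values were seen. Replicate numbers recur across groups, and deviations of same-numbered arrays correlated between -0.128 and 0.0904 in 14 pairs. The main fit did not treat the numbers as pairs. These correlations cannot settle whether equal numbers share a donor or day. No arrays were identical, no hybridization batch is named, and the number of arrays limits precision. Some items are not reported here. Calculations used R 4.3.3, limma 3.58.1, numpy 2.4.6, scipy 1.17.1, pandas 2.3.3 and matplotlib 3.10.9. Alternatives were other normalizations, pseudocounts, filters, variance models, weights for arrays, fits limited to the groups compared, a replicate block, and leaving out arrays.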

Additional observations from a re-analysis of the deposited data

Results flagged for a closer look

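Among 28 groups of 8 tumours examined for a sample far from the others, 2 held one, and chance alone marks about 1 in 20 such groups. Irf9 read 243 in 40 mg/kg tumour 6, the highest of its dose, with a gap to the next tumour that made up 0.634 of the range. The dimmer Stat2 probe set read 15.5 in 40 mg/kg tumour 4, the lowest of its dose, with a gap of 0.567 of the range. The brighter Stat2 probe set read 70.5 in that tumour, near its dose median of 71.1.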

How the results depend on the processing

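The log2 changes of the 6 low genes against vehicle kept their direction under every alternative run, and no probe set of a member and no pathway gene was called between 160 and 40 mg/kg under any of them. Counts of calls against vehicle were less stable. With the replicate number as a block, which no label ties to a shared animal or day, the member calls were 4 for both doses together and 0 at 40 mg/kg, and the pathway calls 2. Array weights gave 7 member calls at 40 mg/kg and 15 pathway calls. At 40 mg/kg there were 0 calls with array medians subtracted, without the filter or without the variance trend, 4 with a pseudocount of 16 and 6 in a fit limited to the groups compared. Calls over all probe sets in these fits were 528, 551, 516, 642 and 1553, in that order. Without vehicle tumour 3 and 160 mg/kg tumour 2, an alternative chosen after seeing the data, there was 1 member call for both doses together, 3 at 160 mg/kg and 0 at 40 mg/kg, and 2 pathway calls. Over all probe sets there were 274 calls for both doses together, 220 at 160 mg/kg and 169 at 40 mg/kg. Leaving out each array gave 0 to 7 member calls for both doses together, 3 to 7 at 160 mg/kg, 0 to 4 at 40 mg/kg and 1 to 8 pathway calls. The lowest counts for both doses, for 160 mg/kg and for the pathway list came without vehicle tumour 3. Without the 2 tumours farthest from the median of Irf7, 1 relation with a member passed, against 4. The correlation of Irf7 with Dhx58 passed under quantile normalization, median subtraction, a pseudocount of 16 and raw values, at r from 0.589 to 0.675. The change of Dhx58 at 160 mg/kg against vehicle was -2.04 with a pseudocount of 16, against -3.08, since adding more to a dim signal shrinks it. The dose difference of Ifnar1 changed sign when 40 mg/kg tumour 8 (-0.0529) or 160 mg/kg tumour 5 (-0.00326) was left out, within a range of -0.0529 to 0.142 over single arrays left out, against 0.06, none of them called. The causes of the other shifts were not tested. With 3 vehicle arrays, each comparison with vehicle rests on few samples, and the signal of Dhx58 in most resistant tumours was too dim to set its true fold.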

Other observations

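The resistant tumours that stood highest for the sensors and Irf genes included the tumour with the highest Gli1 of each dose. Gli1, a transcription factor and target of Hedgehog signalling, read 2638 in 160 mg/kg tumour 1, where the dose median was 203. It read 2286 in 40 mg/kg tumour 8, where the dose median was 169. Vehicle tumours lay between 320.3 and 338. The third such tumour, 40 mg/kg tumour 6, had Gli1 at 215, below the vehicle range, and 40 mg/kg tumour 7 had Gli1 at 598 with Ifih1 at 147 and Irf7 at 59.8. These values were picked out after they were seen, and no relation between Gli1 and the interferon genes was tested.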
